A study of Mus musculus with 6 samples.

Results

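The germline genes described here are 54 genes of meiosis and of the piRNA pathway, taken from a list that names them by symbol; 51 of the 54 were measured by a probe set named for that gene alone, among 19938 genes in all. Syce3, Rnf212 and Fkbp6 had no such probe set and are not analysed here. The data are arrays of 6 mouse colon tumours, 3 for each of a pair of genotypes, from mice of mixed C57BL/6 and 129Sv4 background at 20 weeks of age that had been given dextran sodium sulfate, which damages the gut lining, at 2% (w/v) from 6 weeks. The hypomethylated tumours came from Dnmt1chip/c; ApcMin/+ mice, which carry the hypomorphic chip allele and the knockout allele c of Dnmt1. The control tumours came from Dnmt1chip/+; ApcMin/+ mice, which carry the chip allele and a normal one. All mice thus share 1 chip allele and the ApcMin mutation, which predisposes mice to intestinal tumours, and neither normal colon nor a tumour without the chip allele is among the 6 samples. The labels do not say that tumours of a genotype came from separate mice: their descriptions carry a common number for all 3 hypomethylated tumours and for 2 of the 3 control tumours, so each p-value reflects only how these tumours differ among themselves, and a mouse and a genotype cannot be told apart.

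Germline genes are used in developing eggs and sperm and are kept silent in nearly all other tissues. Many of them have promoters rich in CpG dinucleotides that are methylated in somatic cells, and DNMT1 is the enzyme that copies this methylation onto newly made DNA strands. The genes fall into a few roles. Proteins of the synaptonemal complex and of the chromosome axis hold paired chromosomes together in meiosis, recombination proteins make and repair the DNA breaks from which crossovers form, and the piRNA pathway uses small RNAs bound to PIWI proteins to silence transposable elements in germ cells.

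The arrays give values taken as log2, with the median of the 6 tumours set to 0 for each probe set, so a value shows how a tumour stands against the others and not how much RNA it holds. Where the groups do not overlap, the innermost values of both groups lie at the same distance from 0 for that reason. Dnmt1 itself had centred values of -0.37, -0.48 and -0.42 in the hypomethylated tumours, against 0.44, 0.52 and 0.37 in the control tumours. Tests are limma fits over all 19938 genes, and a gene is called where the Benjamini-Hochberg adjusted p lies under 0.05. Over all genes 10.7% were called higher and 21.3% lower. Markers of colon epithelium were higher in the same hypomethylated tumours in 12 of 14 cases with none lower. Proliferation genes were lower in 15 of 19 with none higher. Of the fibroblast markers 6 of 10 were lower, with 1 higher. Smooth muscle, endothelial and macrophage markers were lower in 4 of 8 each, with 1 endothelial marker higher. Of the T cell markers 0 of 7 were called in limma, 1 at an unadjusted p under 0.05, and of the B and plasma cell markers 1 of 7 was higher. In such bulk samples, fewer cells of a type and less RNA per cell cannot be told apart.

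Few of the germline genes were higher in the hypomethylated tumours, and most lay near 0. Of the 51 measured, 8 were called higher (15.7%), where 10.7% of all genes were. A further 6 were called lower (11.8%), where 21.3% of all genes were, and 37 were not called. The higher genes were Tex12, Syce1, Tdrd1, Tdrd7, Tex11, Tex19.1, Piwil4 and Stag3, and the lower ones Tex15, Spo11, Mlh3, Syce2, Zcwpw1 and Nanos3. Without control replicate 1 or control replicate 2 the higher genes numbered 5, and without control replicate 2 or control replicate 3 the lower ones numbered 3. The median difference over the 51 genes was 0.066 on the log2 scale, against -0.0058 over all genes, and 36 of the 51 (70.6%) lay within 0.25 of 0, against 66.3% of all genes. The whole group of hypomethylated tumours lay above the whole control group in 15 genes (29.4%, against 17.9% of all genes) and below it in 6 (11.8%, against 28.5%).

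**Figure D1:**
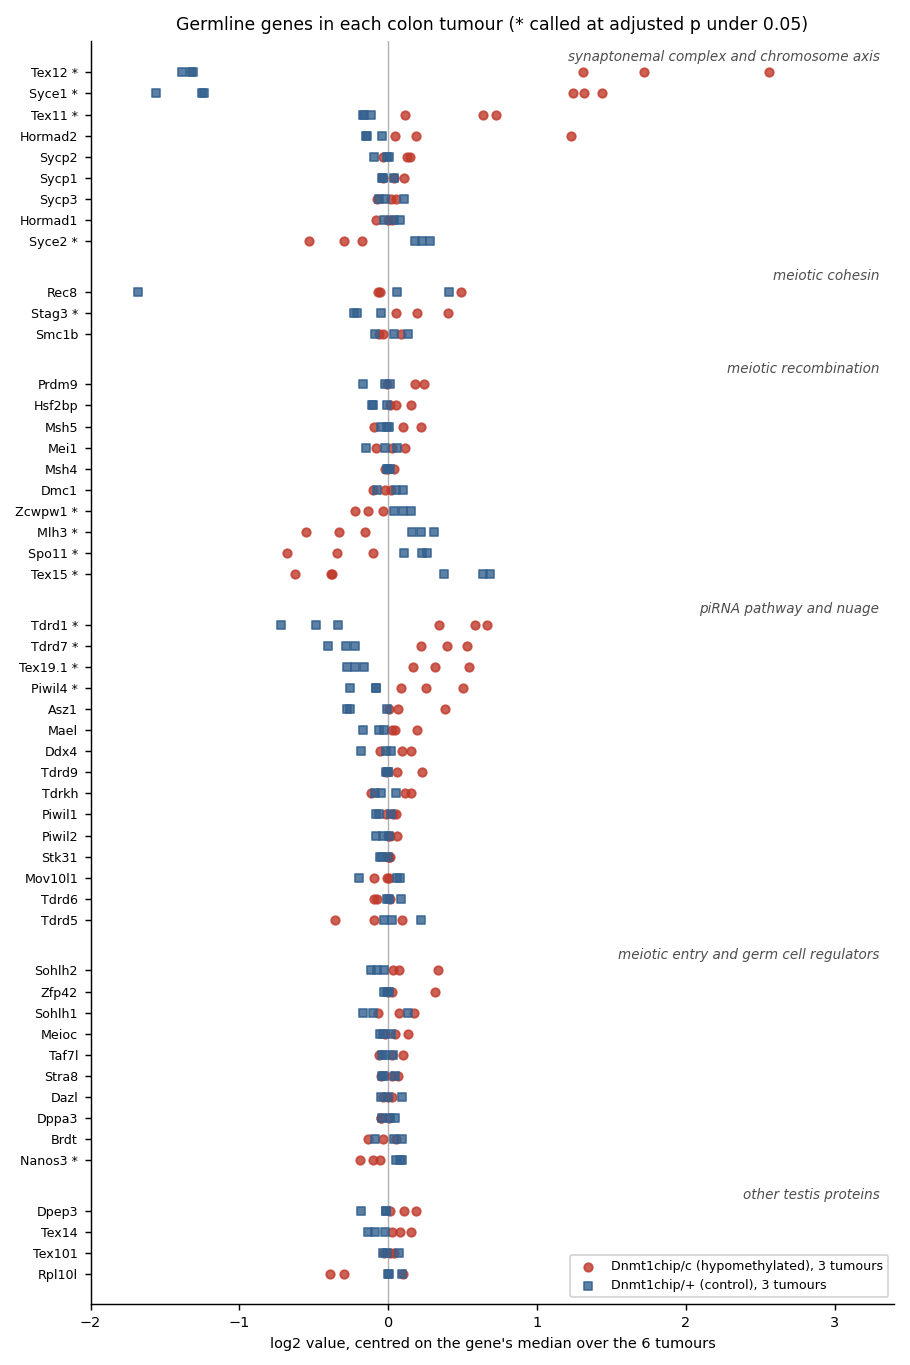
Centred log2 values (horizontal axis) of the 51 measured germline genes (vertical axis, grouped by role and sorted by difference) in the 3 Dnmt1chip/c tumours (red circles) and the 3 Dnmt1chip/+ tumours (blue squares). Tex12 and Syce1 lie far from the rest, with all 3 Dnmt1chip/c tumours at 1.24 or above and all 3 Dnmt1chip/+ tumours at -1.24 or below, while most genes stay close to 0 in every tumour.

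The promoters of 4 of the higher genes and of 2 well-known germline genes that were not called, Ddx4 and Dazl, are shown because the study alters the enzyme that copies CpG methylation and these windows hold CpGs. Methylation itself was not measured on these arrays, and the tumours are called hypomethylated after their Dnmt1 genotype. The 6 were chosen after their values were seen. Each sequence is the RefSeq window of the GRCm38.p6 build from 250 bases before to 50 bases after a transcription start, read 5′ to 3′ along the gene, with each CpG dinucleotide in capitals. Tex12 lies at chr9:50561219-50561518 on the minus strand with 26 CpGs, Syce1 at chr7:140787805-140788104 on the minus strand with 14, and Tdrd1 at chr19:56826025-56826324 on the plus strand with 25. Tex19.1 lies at chr11:121145893-121146192 on the plus strand with 16, Ddx4 at chr13:112652261-112652560 on the minus strand with 38, and Dazl at chr17:50293571-50293870 on the minus strand with 28.
Tex12: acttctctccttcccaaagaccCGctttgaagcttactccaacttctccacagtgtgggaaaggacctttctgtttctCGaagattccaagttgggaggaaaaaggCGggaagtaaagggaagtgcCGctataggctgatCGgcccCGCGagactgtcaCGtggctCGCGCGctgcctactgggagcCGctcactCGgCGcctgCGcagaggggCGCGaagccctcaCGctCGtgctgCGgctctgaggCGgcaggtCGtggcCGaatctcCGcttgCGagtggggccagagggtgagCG
Syce1: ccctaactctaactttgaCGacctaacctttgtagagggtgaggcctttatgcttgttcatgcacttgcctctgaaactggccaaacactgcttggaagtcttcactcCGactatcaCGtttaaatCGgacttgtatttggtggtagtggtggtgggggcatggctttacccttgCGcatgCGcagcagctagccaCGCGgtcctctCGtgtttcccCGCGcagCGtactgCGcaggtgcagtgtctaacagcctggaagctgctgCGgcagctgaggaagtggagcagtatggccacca
Tdrd1: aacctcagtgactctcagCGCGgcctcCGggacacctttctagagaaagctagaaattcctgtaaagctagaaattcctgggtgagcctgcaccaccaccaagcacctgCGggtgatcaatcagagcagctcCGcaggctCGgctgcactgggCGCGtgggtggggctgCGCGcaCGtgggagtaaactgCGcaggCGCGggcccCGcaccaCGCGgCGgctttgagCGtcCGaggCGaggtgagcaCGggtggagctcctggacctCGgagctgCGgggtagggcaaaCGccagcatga
Tex19.1: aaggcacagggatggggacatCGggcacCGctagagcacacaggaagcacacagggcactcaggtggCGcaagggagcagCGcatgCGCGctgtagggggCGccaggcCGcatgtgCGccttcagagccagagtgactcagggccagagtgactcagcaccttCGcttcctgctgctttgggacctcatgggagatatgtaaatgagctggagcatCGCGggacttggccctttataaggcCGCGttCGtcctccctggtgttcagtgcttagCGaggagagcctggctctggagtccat
Ddx4: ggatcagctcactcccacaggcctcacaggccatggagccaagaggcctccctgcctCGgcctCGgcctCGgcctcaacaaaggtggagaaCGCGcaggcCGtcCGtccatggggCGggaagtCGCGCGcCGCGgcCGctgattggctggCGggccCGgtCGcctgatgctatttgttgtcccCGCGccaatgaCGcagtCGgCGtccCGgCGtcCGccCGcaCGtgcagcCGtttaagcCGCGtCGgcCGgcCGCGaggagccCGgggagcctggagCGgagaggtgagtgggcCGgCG
Dazl: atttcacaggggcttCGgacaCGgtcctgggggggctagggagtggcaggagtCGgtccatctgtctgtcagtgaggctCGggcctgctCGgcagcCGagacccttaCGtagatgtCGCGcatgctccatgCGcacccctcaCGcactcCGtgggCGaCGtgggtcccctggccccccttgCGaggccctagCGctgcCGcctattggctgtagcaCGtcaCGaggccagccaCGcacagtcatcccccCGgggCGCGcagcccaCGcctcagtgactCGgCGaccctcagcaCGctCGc

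The 2 largest increases were in Tex12 and Syce1, genes of the synaptonemal complex. Of the 9 measured genes of the complex and of the chromosome axis together, 3 were called higher and 1 lower, beside 10.7% and 21.3% of all genes. Tex12, which encodes a component of the central element between paired chromosomes, had centred log2 values of 2.56, 1.31 and 1.72 in the hypomethylated tumours, against -1.31, -1.39 and -1.32 in the control tumours. The control tumours lay close together, the hypomethylated ones were spread more widely, and the groups were far apart. The means were 1.86 ± 0.64 and -1.34 ± 0.04 (SD, n = 3 each), a difference of 3.20 ± 0.28 (SE), or 9.21-fold higher (limma, adjusted p = 5.44e-04). Tex12 ranked 32nd among all 19938 genes by the size of its increase. Syce1, another central element gene, had values of 1.24, 1.32 and 1.43 in the hypomethylated tumours, against -1.24, -1.56 and -1.25 in the control tumours. It was the more even of the pair among hypomethylated tumours, and it rose by 2.68 ± 0.10 (SE), 6.42-fold (adjusted p = 5.04e-05). Each of the 14 called genes had p = 0.1 in a two-sided exact permutation test on its own, which is as low as 3 tumours against 3 can go.

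Other genes of the same complex did not follow. Sycp1, the transverse filament that joins the axes to the central element, differed by 0.049 (95% interval -0.09 to 0.19), Sycp2 and Sycp3, which form the lateral elements, by 0.11 (-0.06 to 0.28) and -0.0076 (-0.17 to 0.15). Syce2, which binds TEX12 in the central element, was lower. Its values were -0.30, -0.54 and -0.18 in the hypomethylated tumours, against 0.23, 0.28 and 0.18 in the control tumours, with no overlap. It fell by 0.57 ± 0.10 (SE) on the log2 scale (adjusted p = 0.00495), so the 3 measured central element genes moved in opposite directions.

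Tex11, an X-linked gene needed for crossover formation, had values of 0.64, 0.11 and 0.72 in the hypomethylated tumours, against -0.17, -0.16 and -0.11 in the control tumours. A pair of hypomethylated tumours carried most of its rise of 0.64 ± 0.15 (SE; adjusted p = 0.0177), and the call was lost without hypomethylated replicate 3, control replicate 1 or control replicate 2. Hormad2, a chromosome axis protein that monitors pairing, had 1.23, 0.18 and 0.04 in the hypomethylated tumours, against -0.15, -0.15 and -0.04 in the control tumours. The groups did not overlap, but hypomethylated replicate 1 alone was far above the rest, and the difference of 0.60 ± 0.29 did not pass (adjusted p = 0.166) and was 0.22 without that tumour. Hormad1, its relative, differed by -0.048 (adjusted p = 0.601). In hypomethylated replicate 1 the mean centred value of the B and plasma cell markers was 0.72, against -0.10 and 0.05 in the other hypomethylated tumours and -0.33 to 0.33 in the control tumours. That of the T cell markers was 0.43, against -0.12 and -0.10 in the other hypomethylated tumours and -0.14 to 0.14 in the control tumours. The part of these cells in the Hormad2 value was not tested.

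**Figure D2:**
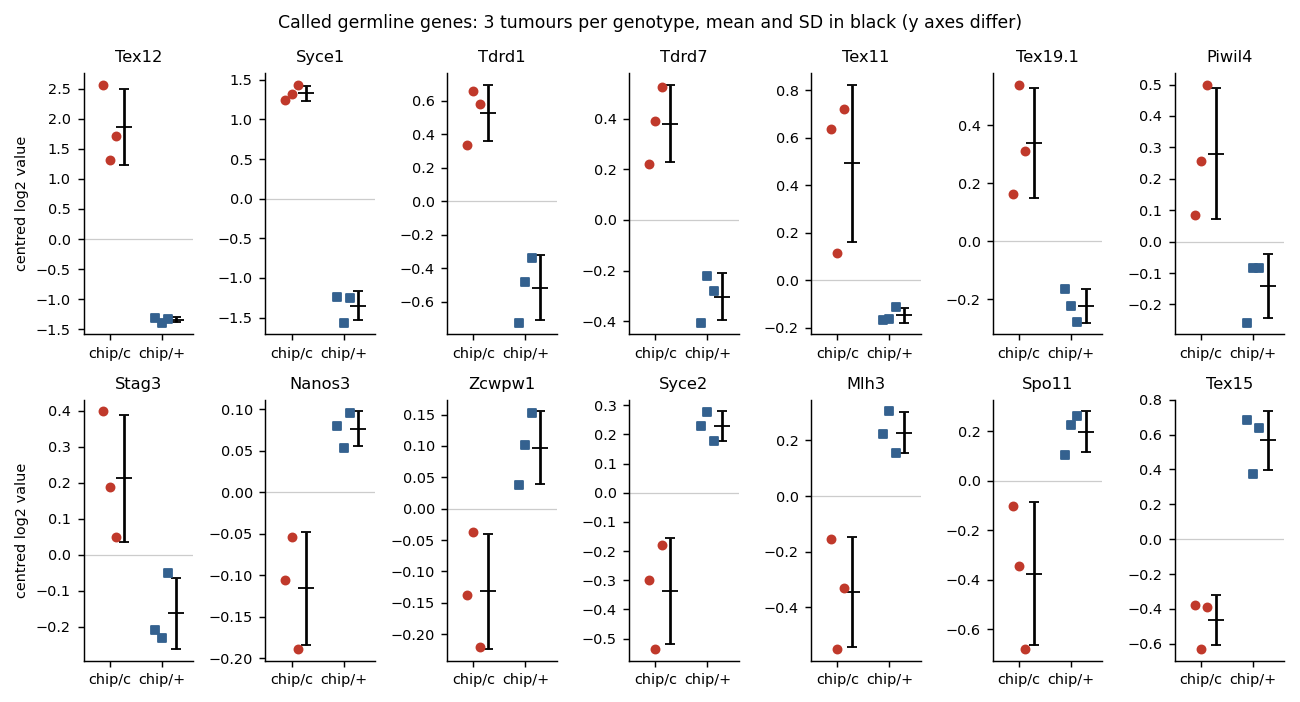
Centred log2 values of the 14 called germline genes in the 3 Dnmt1chip/c tumours (red circles, left of each panel) and the 3 Dnmt1chip/+ tumours (blue squares, right), with the mean and SD of each group in black; the vertical axis differs between panels. The panels run from Tex12, with a difference of 3.20, to Tex15, with a difference of -1.03.

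Meiotic cohesin, the ring complex that holds sister chromatids together, showed a small increase of 1 gene. Stag3, its meiosis-specific STAG subunit, had values of 0.40, 0.19 and 0.05 in the hypomethylated tumours, against -0.21, -0.23 and -0.05 in the control tumours. It rose by 0.38 ± 0.10 (SE; limma, adjusted p = 0.0274), and the call was lost without hypomethylated replicate 2, control replicate 1 or control replicate 2. Rec8, the kleisin subunit that closes the ring, had 0.49, -0.07 and -0.06 in the hypomethylated tumours, against -1.68, 0.40 and 0.06 in the control tumours. Control replicate 1 stood far below the others and the groups overlapped. The difference of 0.53 ± 0.51 did not pass (adjusted p = 0.492) and was -0.11 without that tumour. Smc1b, the meiotic SMC subunit, differed by -0.030 (adjusted p = 0.811).

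Of 10 measured recombination genes 4 were called lower and none higher, where 21.3% of all genes were lower and 10.7% higher. Each gene was counted in a single role, and Tex11, a crossover gene called higher at 0.64, was counted with the synaptonemal complex and chromosome axis. Tex15, known for roles in break repair in meiosis and in silencing transposons in male germ cells, had values of -0.38, -0.63 and -0.39 in the hypomethylated tumours, against 0.69, 0.38 and 0.64 in the control tumours. All 3 hypomethylated tumours were well below the controls, and Tex15 fell by 1.03 ± 0.11 (SE) on the log2 scale (adjusted p = 8.85e-04), a level 2.04-fold higher in control tumours. Mlh3, a mismatch repair protein that resolves crossovers and is also used outside the germline, had -0.16, -0.55 and -0.33 in the hypomethylated tumours, against 0.22, 0.30 and 0.16 in the control tumours, and fell by 0.57 ± 0.10 (adjusted p = 0.00636). Spo11, the enzyme that makes the meiotic breaks, had -0.10, -0.35 and -0.68 in the hypomethylated tumours, against 0.10, 0.23 and 0.26 in the control tumours. Its fall of 0.57 ± 0.14 (adjusted p = 0.0194) was uneven among the hypomethylated tumours and lost its call without hypomethylated replicate 2, control replicate 2 or control replicate 3.

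Zcwpw1, a reader of the histone marks that PRDM9 sets at recombination sites, had -0.14, -0.04 and -0.22 in the hypomethylated tumours, against 0.04, 0.10 and 0.15 in the control tumours. This small decrease, -0.23 ± 0.07 (SE), had an adjusted p = 0.0398 and lost its call when any 1 tumour other than hypomethylated replicate 2 was left out. Prdm9 had -0.0082, 0.18 and 0.24 in the hypomethylated tumours, against -0.02, 0.0082 and -0.17 in the control tumours, with an overlap of the groups (difference 0.20, adjusted p = 0.126). It was called higher, at 0.27, without hypomethylated replicate 1. The other 5 genes of this role, Hsf2bp, Msh5, Mei1, Msh4 and Dmc1, lay between -0.058 and 0.15. Msh4 and Msh5, which form the complex that stabilises crossover intermediates, differed by 0.0021 (95% interval -0.12 to 0.12) and 0.091 (-0.11 to 0.29), and Dmc1, the meiotic strand exchange protein, by -0.058 (-0.22 to 0.10).

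In the piRNA pathway 4 of 15 measured genes were higher and none lower, where 10.7% of all genes were higher and 21.3% lower. Tex15, which also has a role in silencing transposons and was called lower at -1.03, was counted with the recombination genes. Tdrd1, a Tudor domain scaffold that binds PIWI proteins in the germ granules called nuage, had values of 0.34, 0.66 and 0.58 in the hypomethylated tumours, against -0.72, -0.48 and -0.34 in the control tumours. The groups were clearly separated, and Tdrd1 rose by 1.04 ± 0.12 (SE), 2.06-fold (limma, adjusted p = 0.00131). Tdrd7, a Tudor protein that is also known from the lens of the eye, had 0.22, 0.39 and 0.53 in the hypomethylated tumours, against -0.41, -0.22 and -0.28 in the control tumours, and rose by 0.68 ± 0.09 (adjusted p = 0.00215). Tex19.1, a mammal-specific protein that helps restrain retrotransposons, had 0.16, 0.54 and 0.31 in the hypomethylated tumours, against -0.16, -0.22 and -0.28 in the control tumours, and rose by 0.56 ± 0.10 (adjusted p = 0.00583). Each of these genes kept its call whichever of the 6 tumours was left out.

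Among the measured genes of the PIWI proteins themselves, only Piwil4 was called. Piwil4, the nuclear PIWI protein of fetal male germ cells, had 0.08, 0.26 and 0.50 in the hypomethylated tumours, against -0.26, -0.08 and -0.08 in the control tumours. Its rise of 0.42 ± 0.11 (SE; adjusted p = 0.0269) kept its call only without hypomethylated replicate 1 among the fits that left out a tumour. Piwil1 and Piwil2 differed by 0.066 (95% interval -0.07 to 0.20) and 0.060 (-0.07 to 0.19). Asz1, a mitochondrial-surface protein of the nuage, had 0.38, 0.0066 and 0.07 in the hypomethylated tumours, against -0.26, -0.28 and -0.0066 in the control tumours, and did not pass at a difference of 0.33 (adjusted p = 0.0759), while it was called higher, at 0.42, without control replicate 3. The remaining 8 genes, among them the helicase genes Ddx4 (0.13) and Mov10l1 (-0.013) and Mael (0.17), lay between -0.19 and 0.17 and were not called. In Mael all hypomethylated tumours lay above the controls, with a 95% interval of 0.0062 to 0.34, but it did not pass (limma, adjusted p = 0.109).

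Regulators of meiotic entry and of early germ cells stayed within 0.22 of 0 in all 10 cases. Stra8, the retinoic acid target that starts meiosis, differed by 0.022 (95% interval -0.12 to 0.16), and the RNA-binding protein gene Dazl by -0.017 (-0.16 to 0.12). Dppa3 and Zfp42, genes of early embryonic and germ cells, differed by -0.036 and 0.12. Nanos3, which protects primordial germ cells, had -0.11, -0.05 and -0.19 in the hypomethylated tumours, against 0.08, 0.05 and 0.10 in the control tumours. This decrease of -0.19 ± 0.06 (SE; limma, adjusted p = 0.0421) was the smallest of the 14 called and lost its call when any 1 tumour other than hypomethylated replicate 2 was left out. Sohlh2, a transcription factor of spermatogonia, had 0.07, 0.03 and 0.33 in the hypomethylated tumours, against -0.07, -0.12 and -0.03 in the control tumours and did not pass (difference 0.22, adjusted p = 0.104).

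Of 4 other testis proteins none was called in limma, but with array weights Tex14 (adjusted p = 0.0235) and Dpep3 (adjusted p = 0.0261) were called higher and Rpl10l (adjusted p = 0.0404) lower. Tex14, an intercellular bridge protein of germ cells, had 0.08, 0.02 and 0.15 in the hypomethylated tumours, against -0.09, -0.13 and -0.02 in the control tumours (difference 0.17, adjusted p = 0.0821), and was the only one of the 4 with an unadjusted p under 0.05. Rpl10l, a testis copy of a ribosomal protein gene, had -0.40, 0.10 and -0.30 in the hypomethylated tumours, against 0.09, 0.0023 and -0.0023 in the control tumours, with overlap (difference -0.23, adjusted p = 0.227), and was called lower, at -0.38, without hypomethylated replicate 2. Tex101 and Dpep3, surface proteins of germ cells, differed by -0.0018 and 0.17. Over all roles, 33 of the 37 uncalled genes had a 95% interval inside 0.5 of 0 on the log2 scale, and the exceptions were Hormad2, Rec8, Asz1 and Rpl10l. Of the 37, 25 lay above 0, and of all 51 measured genes 33 did, against 48.6% of all genes.

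The signal level of a gene is not kept in centred values, but the spacing of the values carries a trace of it. A gene whose values are all multiples of 2 to the power of -20, in place of -21, is one that probably never fell under 8 on the uncentred scale, an inference that can take in lower genes by chance. Of the 51 germline genes 5 (9.80%) were of this kind, against 50.9% of all genes: Tdrd7, Rec8, Syce2, Mlh3 and Tex15. Of these 5, Tdrd7 was called higher and Syce2, Mlh3 and Tex15 lower, so 3 of the 6 lower genes and 1 of the 8 higher genes were among them. When only genes of this kind were fitted, 5478 of 10142 were called, against 6380 of 19938 in the main fit. The shares of all genes set beside the counts of germline genes were not matched for signal level. Whether the rest were near the array's floor is not known from centred values, and a difference near 0 does not show whether the gene was silent in both groups.

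Further genes of the same pathways are given beside the 51, on lists chosen with earlier results of these data known. Of 26 other meiosis genes 6 were higher and 2 lower, with a median of 0.025, where 10.7% of all genes were higher and 21.3% lower. M1ap, needed for male meiosis in mouse, had values of 0.71, 1.06 and 1.30 in the hypomethylated tumours, against -1.03, -0.85 and -0.71 in the control tumours, and rose by 1.89 ± 0.15 (SE), 3.71-fold (limma, adjusted p = 4.37e-04). Shoc1, a crossover protein, rose by 1.21 ± 0.06 (adjusted p = 1.22e-04) and Ccnb1ip1, a ubiquitin ligase that marks crossover sites, by 1.11 ± 0.10 (adjusted p = 5.82e-04). Terb2, which helps to tether telomeres to the nuclear envelope in meiosis, rose by 0.34 (adjusted p = 0.00814). Hfm1 and Ythdc2 rose by 0.34 and 0.53 (limma, adjusted p = 0.00871 and 0.0112). The lower genes were Mns1, a filament protein of sperm tails, at -0.35 (adjusted p = 0.0165), and Trip13, which removes HORMA domain proteins from chromosomes and is also used in dividing somatic cells, at -0.40 (adjusted p = 0.0475). Of 15 other piRNA genes 1, Gtsf1, was higher at 0.21 (adjusted p = 0.0414) and none lower. Of 30 genes of later sperm development 1, Catsper4, was higher at 0.22 (adjusted p = 0.0329) and none lower, and all 30 lay between -0.20 and 0.22; they included the protamine genes Prm1 and Prm2.

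**Figure D3:**
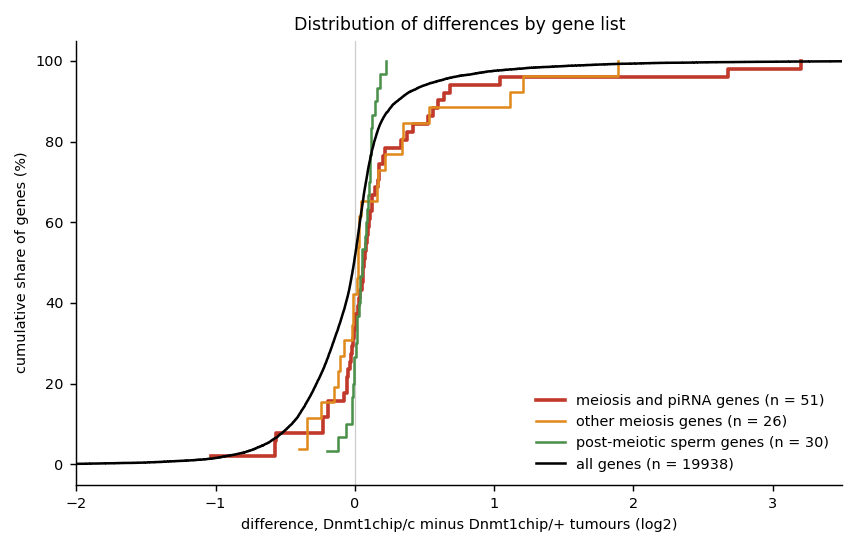
Cumulative share of genes (vertical axis, percent) by their log2 difference between Dnmt1chip/c and Dnmt1chip/+ tumours (horizontal axis, shown from -2 to 3.5) for the 51 germline genes, 26 other meiosis genes, 30 post-meiotic sperm genes and all 19938 genes. The sperm genes stay between -0.20 and 0.22, while both meiosis lists have a tail on the right, up to 3.20 for Tex12 and 1.89 for M1ap.

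The neighbours of the called genes on their chromosomes were compared with them, a choice made after the values were seen. For Tex12, the overlapping gene Il18 differed by 0.44 ± 0.19 (SE; limma, adjusted p = 0.125), Sdhd rose by 0.33 (adjusted p = 0.0206), Timm8b lay at -0.014 and Bco2 fell by 0.51 (adjusted p = 0.00260). For Syce1, Cyp2e1 fell by 0.31, Zfp941 fell by 0.44, and Olfr541 and Urah differed by -0.16 and 0.14. No measured neighbour of either gene, 2 on each side, moved by more than 0.51, against 3.20 and 2.68 for Tex12 and Syce1. Next to Tdrd1, Ccdc186 rose by 0.68 ± 0.09 (adjusted p = 0.00172), Vwa2 differed by -0.19 and Afap1l2 fell by 0.77. The 4 neighbours of Tdrd7 lay between -0.15 and 0.10, with adjusted p from 0.179 upward.

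Of the 24 measured neighbours of the 6 lower genes 13 were called lower and none higher, and of the 30 measured neighbours of the 8 higher genes 8 were called lower and 4 higher, where 21.3% of all genes were lower and 10.7% higher. All 4 neighbours of Mlh3 were lower, at -0.21 to -0.88, as were 3 of 4 neighbours of Spo11 and of Tex15, 2 of 4 of Syce2, 1 of 4 of Nanos3 and 0 of 4 of Zcwpw1. Beside higher genes, Amotl1 next to Piwil4 fell by 0.80, Ogfod3 near Tex19.1 fell by 0.54 and Snx12 near Tex11 fell by 0.25. Gdpd2, also near Tex11, was called higher at 0.38, and Map11 near Stag3 was called higher at 0.26. Syce2 overlaps Gcdh, which fell by 0.37 (adjusted p = 0.00363), and Farsa on its other side fell by 0.23. Zcwpw1 overlaps Pilra, which differed by -0.60 (adjusted p = 0.102), and Stag3 overlaps Gpc2, which fell by 0.38 (adjusted p = 0.0374), and Gal3st4, at 0.081. Whether signal from an overlapping gene enters a probe set was not tested.

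**Figure D4:**
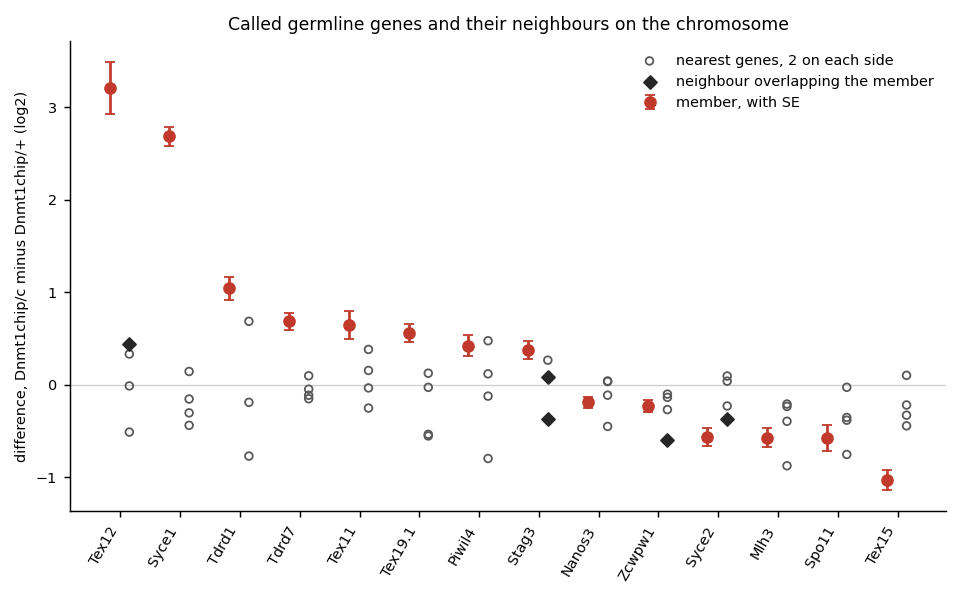
Log2 difference between Dnmt1chip/c and Dnmt1chip/+ tumours (vertical axis) of the 14 called germline genes (red, with SE) and of the measured genes next to them on the chromosome, 2 on each side (open circles; filled diamonds where the neighbour overlaps the germline gene). Tex12 at 3.20 and Syce1 at 2.68 stand apart from all their neighbours, while Mlh3 at -0.57 lies within the range of its own.

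The promoter windows of the germline genes held slightly more CpGs than those of all genes, and the counts of called and uncalled genes overlapped. RefSeq windows were found for 45 of the 51 genes and for 15614 of all genes, taking the window with the most CpGs where a gene had several; Dppa3, Piwil2, Spo11, Tdrd6, Tex11 and Tex15 had none. The median was 19 CpGs in the 45 germline windows and 16 in all. It was 25 in the 7 higher germline genes, 22.5 in the 4 lower and 18 in the 34 not called. Over all genes with a window it was 16 in those called higher, 22 in those called lower and 13 in those not called. Syce1, with the second largest rise, had 14 CpGs, whereas Tdrd5 with 48 and Ddx4 with 38 differed by -0.19 and 0.13. Over the 45 genes the CpG count and the difference had a Spearman rho of -0.084, given as a description.

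**Figure D5:**
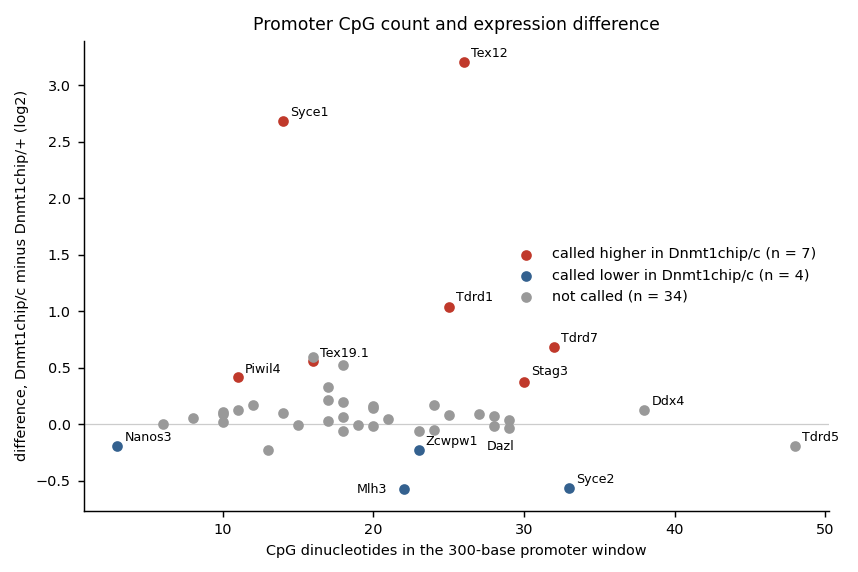
CpG dinucleotides in the 300-base promoter window (horizontal axis) and log2 difference between Dnmt1chip/c and Dnmt1chip/+ tumours (vertical axis) of 45 germline genes, coloured by call. The 7 higher genes run from 11 CpGs (Piwil4) to 32 (Tdrd7) and overlap with the 34 genes not called, which run from 6 to 48.

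Short motifs were counted on both strands of the same windows, each on its own, so matches may overlap. CACGTG, the E-box letters that MAX and MGA dimers can bind, stood in 16 of the 45 germline windows (35.6%), against 8.54% of all windows. It was present in Tex12, Tdrd1 and Stag3 among the 7 higher genes and in 12 of the 34 not called (35.3%). It appears as caCGtg in the Tex12, Tdrd1 and Ddx4 sequences above. The E2F-type core TCCCGC stood in 19 (42.2%), against 29.2% of all windows, and CNCCTCAG, letters reported for STRA8 and its partner MEIOSIN, in 11 (24.4%), against 8.72%. These are matches of letters, not sites shown to be bound.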

How the data were processed

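RNA of 6 colon tumours was biotin-labelled and hybridised to arrays, per the labels' protocols; the array type, where a description gives one, is MoGene 1.0 ST of Affymetrix. The deposited values were taken as log2 values, a base inferred because no label states it, and every fold rests on it; how the arrays were normalized and summarised is not given in the sources used here, which hold no text on it. All 28856 rows of the table have a median within 1e-06 of 0 over the 6 tumours. Sequencing depth does not apply to arrays, whose number limits the precision.

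Of the probe sets 21789 had 1 gene symbol in the platform annotation, and their mean was taken per gene. Genotypes were compared by limma's lmFit and eBayes (limma 3.58.1, R 4.3.3; 3.02 prior degrees of freedom), two-sided, with no filter on signal and no block, and p-values were adjusted over all 19938 genes. Scripts were tested on simulated data. Hormad1 and Dppa3 have 2 probe sets each, with differences of -0.10 and 0.0035, and of -0.097 and 0.025. Sequences and gene neighbours are RefSeq's for GRCm38.p6. The members and all gene lists were chosen with earlier results of these data known. Values in every tumour are given for each member called and for the 6 uncalled members with the largest difference. They are also given for the member with the smallest p in a role with no call. Of the germline lists beside them, called genes are named, up to 4 by smallest p in each. Exceptions are the other meiosis genes, where every called gene is named, and genes said to be named after their values were seen. Lists of cell markers are given as counts. Prm1, Prm2 and the flat members named were chosen after their values were seen. Alternatives were the replicate number as a block, other normalizations, array weights, robust eBayes, other thresholds, other choices of probe sets or genes, and leaving out each tumour.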

Additional observations from a re-analysis of the deposited data

How the results depend on the processing

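Of the 14 called genes 8, Tex12, Syce1, Tdrd1, Tdrd7, Tex19.1, Syce2, Mlh3 and Tex15, kept direction and call under each of the 16 alternatives in which they could be fitted. Some alternatives could not change this. A looser threshold cannot remove a call, and each of these genes has 1 probe set, so the choices of probe sets left their differences unchanged. The replicate block, robust eBayes and other thresholds also leave each difference as it was, so direction could not turn there. The count of higher genes was 13 with array weights (Asz1, Sohlh2, Hsf2bp, Tex14 and Dpep3 added, and Rpl10l added to 7 lower), 5 at an adjusted p under 0.01 and 1 of the 5 genes with all values at 8 or above; leaving out a tumour gave 5 to 9. That of lower genes was 3 at an adjusted p under 0.01 and 3 of the 5 genes with all values at 8 or above; leaving out a tumour gave 3 to 6. The median difference was -0.57 over those 5 genes and 0.039 to 0.097 when a tumour was left out. Over all genes 6380 were called, 3511 at an adjusted p under 0.01 and 4199 to 6593 when a tumour was left out. The difference of Rec8 ran from -0.11 without control replicate 1, where its direction turned, to 0.93 without control replicate 2. With the replicate block 7 genes were higher and 3 lower; Stag3, Spo11, Zcwpw1 and Nanos3 lost their calls (adjusted p = 0.0791, 0.0512, 0.117 and 0.145) and 4257 of all genes were called. Same-numbered tumours deviated from their group means in opposite ways (correlations of -0.29, -0.31 and -0.22 across genes). Deviations within a group cancel out, which ties these correlations to each other, so they cannot show whether the numbers pair the tumours. The cause of these changes was not tested. Where genes or tumours were left out, their smaller number and the particular ones removed cannot be told apart. Signal over background is unknown, so genes near the array's floor cannot be told from silent ones.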

Other observations

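Genes of the cancer-testis type, many of them X-linked, included 2 higher members among 15 measured and 0 lower members in limma, 0 lower at an unadjusted p under 0.05. Of all genes 10.7% were called higher and 21.3% lower. Xlr, an X-linked gene whose protein is related to the synaptonemal complex protein SYCP3, had centred log2 values of 0.79, 0.59 and 1.23 in the hypomethylated tumours, against -1.07, -1.10 and -0.59 in the control tumours. The groups did not overlap, and Xlr rose by 1.79 ± 0.20 (SE), 3.46-fold (limma, adjusted p = 0.00104). Its close copies carry probe sets named for several genes at once and were not used. Slc25a31, a mitochondrial ADP/ATP carrier gene of the testis, had 3.97, 0.56 and 0.011 in the hypomethylated tumours, against -0.011, -0.22 and -0.02 in the control tumours. Hypomethylated replicate 1 alone carried most of the difference of 1.6 ± 0.94 (SE), which did not pass (adjusted p = 0.25); the gene was named after its values were seen. Nxf7, a relative of the RNA export factor genes, rose by 0.46 ± 0.06 (adjusted p = 0.00179).

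Of 16 measured genes known to keep germline genes silent 10 were lower and 1 higher, where 21.3% of all genes were lower and 10.7% higher. Proliferation genes moved the same way, with 15 of 19 lower and a median of -0.47, and the part of proliferation in these values was not tested. Dnmt1, the altered gene, fell by 0.87 ± 0.06 (SE; limma, adjusted p = 3.13e-04), Ehmt1, which methylates histone H3, fell by 0.54 ± 0.06 (adjusted p = 9.48e-04), and Trim28, a corepressor, fell by 0.50 ± 0.05 (adjusted p = 0.00100). Dnmt3a, a de novo methyltransferase gene, fell by 0.55 ± 0.07 (adjusted p = 0.00208). Subunits of the Polycomb-type repressor complex PRC1.6 went different ways. Max was higher, at 0.38 (adjusted p = 0.00471). Pcgf6, Rnf2 and L3mbtl2 were lower, at -0.49 (adjusted p = 0.00784), -0.39 (adjusted p = 0.00565) and -0.27 (adjusted p = 0.0321). Mga, E2f6 and Ring1 were not called, at -0.19 (adjusted p = 0.0825), -0.12 (adjusted p = 0.442) and 0.017 (adjusted p = 0.854). These subunits were named after their values were seen.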
